A study of Homo sapiens with 4 samples.

Results

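The imprinted genes of K562 cells with and without the JAZF1-SUZ12 fusion are described here. A list of 36 genes described as imprinted in human was looked up by symbol in the table of estimated counts. Of these genes, 4 are imprinted only for some transcripts and 2 variably, and the others are read mainly from the maternal or the paternal copy, some only in certain tissues. Of the 36 genes, 32 had a row among the 35606 genes of the table, and the non-coding RNAs H19, MEG3, MEG8 and KCNQ1OT1 had none and were not analysed here. Both groups are K562, a line established from a chronic myelogenous leukaemia that makes embryonic and fetal globins. One group is labelled JAZF1-SUZ12, the product of a translocation found in endometrial stromal tumours, and the other is labelled mock. How the fusion was introduced, and whether the libraries of a group came from separate cultures or clones, is not given in the sources used here, so p-values measure only the spread between these libraries. Each group held 2 libraries of poly(A) RNA, numbered 1 and 2.

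Genomic imprinting marks a parental copy of a region with DNA methylation in the germ line. The body's cells then read a gene mainly from a single parental copy, either the marked or the other. Imprinted genes lie in clusters in which one methylated control region, often with a long non-coding RNA, sets the state of several neighbours. Polycomb repressive complex 2, to which SUZ12 belongs, deposits the repressive mark H3K27me3 and takes part in keeping some imprinted copies silent. The counts are sums over both copies, so no value below tells the parental copies apart.

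The libraries held between 17260936 and 24423028 counts after rounding. JAZF1-SUZ12 replicates 1 and 2 had 14382 and 15328 genes with 10 or more counts, and the mock libraries 14121 and 14235. The source label reads uterus while the cell line is K562, so marker genes were looked at. All 12 erythroid markers passed the filter on low counts. Their summed level was 12736.1 to 13030.7 counts per 1000000 counted (CPM) in mock and 14748.9 to 14934.4 CPM in the fusion libraries. The 10 stromal markers summed to 16.2 to 17.3 CPM in mock and 33.8 to 35.9 CPM in the fusion libraries. Of the 12 erythroid markers 5 rose, among them HBZ, which is 41.7% where 13.3% of all genes tested were called higher by the test described below. Of the 10 stromal markers 5 were tested and 1, COL1A1, rose. Its mean went from 5.79 CPM in mock to 21.4 CPM with the fusion, which is most of the rise of the stromal sum. PGR (93 to 147 counts), COL1A2 (39 to 114), COL6A3 (28 to 64) and DCN (6 to 20) were tested and not called. LUM was at 0 counts and COL3A1 at no more than 3 counts in every library, and ESR1, PDGFRA and THY1 were below the filter. The part of these shifts in the results below was not tested.

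Of the 32 imprinted genes with a row, 23 passed the filter on low counts and were tested. A test here is edgeR's quasi-likelihood test with a Benjamini-Hochberg adjusted p under 0.05 over all 14750 genes tested, and a gene past it is called. IGF2, ZDBF2, DIRAS3, DLK1, TP73 and L3MBTL1 rose in JAZF1-SUZ12 cells. These 6 genes were 26.1% of the members tested, and 24.7% of all genes tested were called in either direction. All 6 were higher, whereas 13.3% of all genes were called higher and 11.4% lower. The share called in either direction therefore lay near that of all genes. No member was called lower by the edgeR test above or by DESeq2. Limma-voom called 1, UBE3A, as did edgeR with no filter on low counts and with the replicate number as a block. Of all genes tested, these edgeR settings called 8.68% and 13.5% lower. DESeq2 called 16.3% of all genes (9.19% higher, 7.13% lower) and limma-voom 25.3%, of which 1772 genes were lower. At an unadjusted p under 0.05, 4 members were lower, namely UBE3A, IGF2R, NAP1L5 and PHLDA2, and 17.6% of all genes were lower at that mark, with 5315 of the 14750 genes passing it in either direction. The median log2 fold change was 0.14 over the 23 members and 0.0032 over all genes tested. A positive log2 fold change was found for 17 of the 23, and for 50.5% of all genes. At least a 2-fold increase was found for 3 called members, IGF2, ZDBF2 and DIRAS3, and for 5.55% of all genes.

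**Figure D1:**
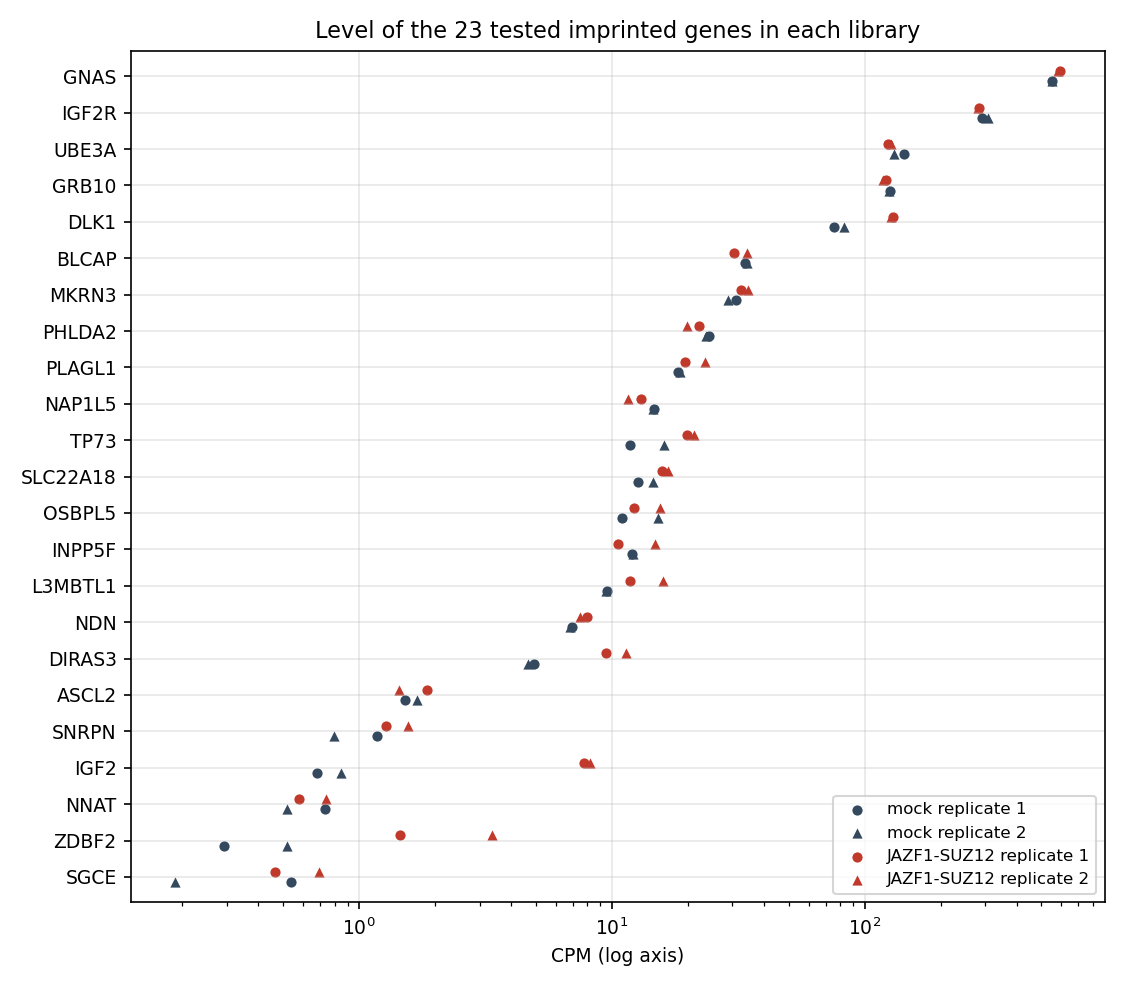
CPM on a log axis for each of the 23 tested imprinted genes, ordered by their mean in mock, with 1 point per library (circle for replicate 1, triangle for replicate 2). IGF2 and DIRAS3 are set apart between the groups, whereas GNAS, the most abundant member at about 551 CPM in mock, lies close together in all 4 libraries.

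The H19-IGF2 domain on chromosome 11 holds IGF2, a fetal growth factor read from the paternal copy, and H19, read from the maternal copy. IGF2 (ENSG00000167244; chr11:2129112-2149603 on GRCh38, minus strand) was counted 14 and 18 times in mock, against 134 and 200 times with the fusion. On the CPM scale this was 0.685 and 0.845 in mock and 7.76 and 8.19 with the fusion, so the groups stood far apart and each was tight. The level rose from 0.765 ± 0.113 to 7.98 ± 0.301 CPM (mean ± SD, n = 2 per group). Its log2 fold change of 3.35 (standard error, SE, 0.26) exceeded that of every other tested member (edgeR, adjusted p = 1.85e-07). With each library left out in turn the log2 fold change lay between 3.20 and 3.50, and IGF2 was called in all 11 alternatives that were run. The authors' deposited table gave a smaller log2 fold change of 2.26 for IGF2 (adjusted p = 0.000657). There ZDBF2, at 2.72, stood above IGF2. DESeq2 run here on the estimated counts gave 3.36 for IGF2, and the cause of the difference from the authors' value was not tested. Even after the rise IGF2 was a low gene for its length, at 0.137 CPM per kb of its longest transcript in mock and 1.43 with the fusion.

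The neighbouring KCNQ1OT1-CDKN1C domain on the same chromosome did not contain a called member. PHLDA2, which limits placental growth, was at 24.2 and 23.6 CPM in mock and 22.2 and 19.8 CPM in the fusion libraries. The groups of PHLDA2 did not overlap, but the log2 fold change of -0.21 did not pass the test (edgeR, adjusted p = 0.119). SLC22A18, a membrane transporter, was at 12.7 and 14.6 CPM in mock and 15.8 and 16.6 CPM with the fusion, also without overlap (edgeR, adjusted p = 0.177). OSBPL5, a lipid transfer protein, and ASCL2, a basic helix-loop-helix factor of the trophoblast, overlapped between the groups. OSBPL5 averaged 13.1 ± 3.01 CPM in mock, against 13.9 ± 2.36 CPM with the fusion (mean ± SD, n = 2 per group). ASCL2 was at 31 and 36 counts in mock and 32 and 35 with the fusion. CDKN1C, the cyclin-dependent kinase inhibitor of this domain, is outside the list but belongs to the second list of imprinted genes described below. It rose by 0.35 on the log2 scale, from 48.6 to 62.8 CPM (edgeR, adjusted p = 0.00137).

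DLK1 was the clearest change among the abundant members. It encodes a transmembrane protein of the Notch ligand family that is found on fetal and progenitor cells, and it is read from the paternal copy of the DLK1-MEG3 domain (ENSG00000185559; chr14:100725705-100738224, plus strand). The mock libraries held 1553 and 1758 counts and the JAZF1-SUZ12 libraries 2226 and 3114. In CPM these were 75.96 and 82.55 against 129.0 and 127.5, without overlap. The log2 fold change came to 0.67 (SE 0.06) (edgeR, adjusted p = 4.9e-07), and it lay between 0.60 and 0.72 when 1 library was left out. The authors' deposited table gave 0.61 (adjusted p = 3.78e-09). RTL1, a retrotransposon-derived gene of the same domain, had 2 and 0 counts in mock and 0 and 4 in JAZF1-SUZ12 libraries and was not tested.

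Outside these clusters, ZDBF2, DIRAS3, TP73 and L3MBTL1 were called. ZDBF2, a zinc finger gene read from the paternal copy (chr2:206274663-206314438, plus strand), had 6 and 11 counts in mock and 25 and 82 in JAZF1-SUZ12 libraries. The CPM values were 0.2935 and 0.5165 in mock and 1.45 and 3.36 with the fusion. Both fusion libraries were above both mock libraries, but they differed from each other more than the mock libraries did. The log2 fold change came to 2.55 (SE 0.51) (edgeR, adjusted p = 0.00177). Without JAZF1-SUZ12 replicate 2 it was 1.81 and ZDBF2 was no longer called (edgeR, adjusted p = 0.12).

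DIRAS3, also known as ARHI, is a Ras-related GTPase that restrains growth and is read from the paternal copy (chr1:68045896-68051631, minus strand). It had 101 and 99 counts in mock and 163 and 277 in JAZF1-SUZ12 libraries, which is 4.94 and 4.65 against 9.44 and 11.3 CPM. The groups did not overlap. DIRAS3 rose by 1.10 on the log2 scale (SE 0.17) (edgeR, adjusted p = 0.000207). It was called whichever library was left out, with log2 fold changes from 0.97 to 1.20.

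TP73 encodes p73, a transcription factor of the p53 family, and reports of its imprinting vary between tissues (chr1:3652520-3736201, plus strand). Its CPM values were 11.8 and 16.0 in mock and 19.9 and 21.2 in JAZF1-SUZ12 libraries. The mock libraries lay further apart than the fusion libraries, yet the groups did not overlap. The log2 fold change came to 0.54 (SE 0.13) (edgeR, adjusted p = 0.00623). Without mock replicate 1 it was 0.33 and TP73 was not called (edgeR, adjusted p = 0.0764).

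L3MBTL1, a chromatin-compacting reader of methylated histones that is itself counted among the Polycomb-related proteins, is read from the paternal copy (chr20:43489442-43550950, plus strand). Its values were 9.587 and 9.485 CPM in mock and 11.8 and 15.9 CPM in the fusion libraries. Here too the fusion libraries were both above mock and replicate 2 was the higher. The log2 fold change came to 0.53 (SE 0.15) (edgeR, adjusted p = 0.016). It was 0.29 without JAZF1-SUZ12 replicate 2 (edgeR, adjusted p = 0.3), and DESeq2 with all libraries did not call it (adjusted p = 0.0677).

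**Figure D2:**
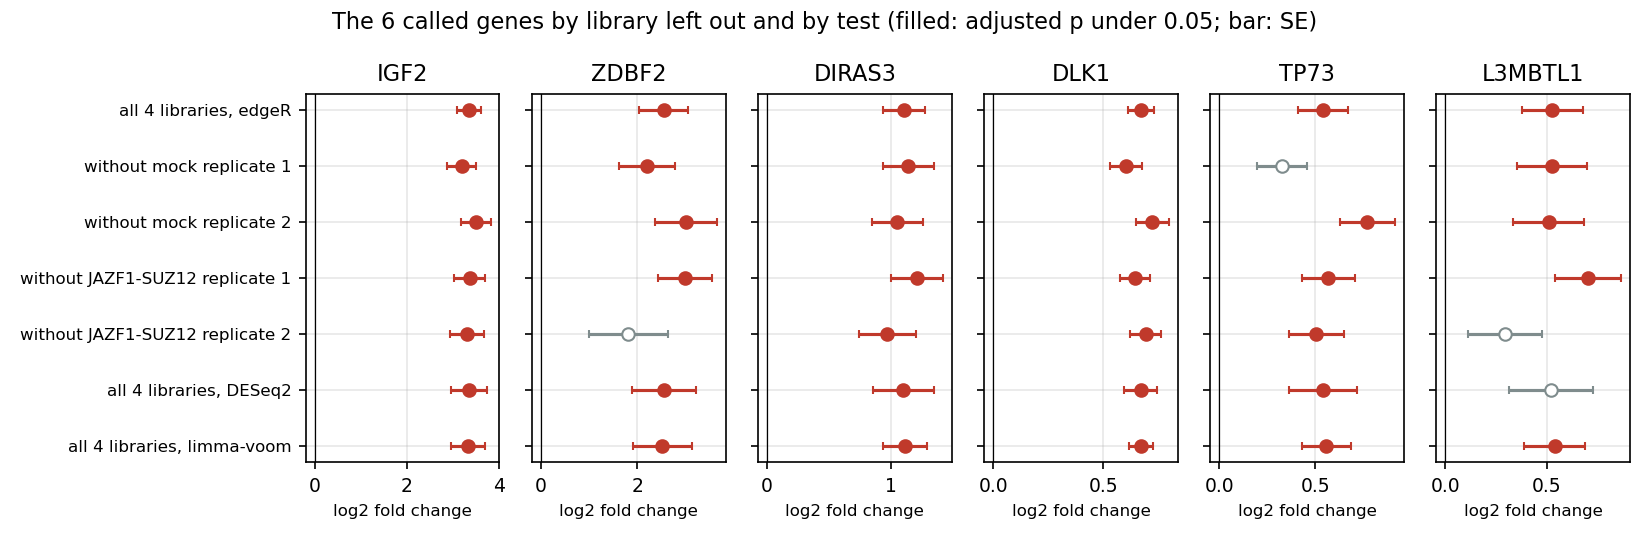
Log2 fold change (JAZF1-SUZ12 against mock) of the 6 called genes with all libraries, with each library left out, and by 2 other tests, each panel on its own axis. Filled points passed an adjusted p of 0.05 and bars are standard errors: IGF2, DIRAS3 and DLK1 are filled throughout, whereas ZDBF2, TP73 and L3MBTL1 each have at least 1 open point.

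JAZF1-SUZ12 replicate 2, the deepest library, was above replicate 1 in 5 of the 6 called members and in 15 of the 23 tested members, against 55.2% of all genes tested. Without that library the log2 fold changes of ZDBF2 and L3MBTL1 were 1.81 and 0.29. Those of IGF2, DLK1 and DIRAS3 were 3.32, 0.69 and 0.97. Such a fit also has fewer libraries and a wider standard error, so the part of this difference in the calls was not tested.

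RefSeq start windows (GRCh38.p14, 250 bases before to 50 bases after a start) were found for 24 of the 36 genes, 4 of them called. The first listed window of each is printed because these genes moved in the same direction and imprinting acts through methylation of CpG dinucleotides, which are in capitals. They lie at chr1:68050578-68050877 (minus strand), chr2:206274413-206274712, chr20:43507447-43507746 and chr1:3652266-3652565 (plus strand) in the order of the lines.
DIRAS3: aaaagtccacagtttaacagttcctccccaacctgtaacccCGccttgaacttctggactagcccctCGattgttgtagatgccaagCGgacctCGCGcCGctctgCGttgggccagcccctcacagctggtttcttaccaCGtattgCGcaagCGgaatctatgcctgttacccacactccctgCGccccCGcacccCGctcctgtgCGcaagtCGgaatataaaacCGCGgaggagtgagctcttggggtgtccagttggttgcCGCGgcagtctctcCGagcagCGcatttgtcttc
ZDBF2: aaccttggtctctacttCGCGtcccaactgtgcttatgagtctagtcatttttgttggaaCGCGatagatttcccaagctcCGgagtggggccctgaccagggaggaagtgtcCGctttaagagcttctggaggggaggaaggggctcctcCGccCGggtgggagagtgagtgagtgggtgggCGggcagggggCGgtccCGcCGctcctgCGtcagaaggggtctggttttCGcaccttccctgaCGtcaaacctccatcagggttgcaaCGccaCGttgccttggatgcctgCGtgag
L3MBTL1: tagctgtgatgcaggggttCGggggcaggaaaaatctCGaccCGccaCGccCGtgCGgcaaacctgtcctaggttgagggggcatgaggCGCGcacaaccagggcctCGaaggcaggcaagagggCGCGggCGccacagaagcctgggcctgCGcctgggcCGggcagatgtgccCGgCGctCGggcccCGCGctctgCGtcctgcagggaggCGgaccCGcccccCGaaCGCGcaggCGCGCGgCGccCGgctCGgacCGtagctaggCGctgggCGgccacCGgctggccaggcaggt
TP73: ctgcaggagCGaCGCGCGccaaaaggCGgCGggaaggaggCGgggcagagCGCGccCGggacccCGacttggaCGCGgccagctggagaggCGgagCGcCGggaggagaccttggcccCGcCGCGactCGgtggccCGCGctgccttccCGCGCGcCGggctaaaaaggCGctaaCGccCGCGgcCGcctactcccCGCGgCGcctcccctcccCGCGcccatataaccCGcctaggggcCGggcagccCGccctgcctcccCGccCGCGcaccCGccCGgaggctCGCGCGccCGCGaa

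These windows held 21 CpGs in DIRAS3, 18 in ZDBF2, 35 in L3MBTL1 and 49 in TP73. The median was 14 over 35116 windows of all genes and 18.5 over the 56 windows of the imprinted genes. TP73 had more CpGs than 98.4% of all windows, while ZDBF2 had more than 55.5%. A further ZDBF2 window that starts at 206274760 held 50. Further windows held 15 and 11 in TP73 and 9 in L3MBTL1. The 8 windows of these 4 genes thus lay on both sides of the median of all windows, and IGF2 and DLK1 had no window. The hexamer TGCCGC, known as the motif of the imprint-protecting zinc finger protein ZFP57, was searched on both strands. It was in 42.9% of the windows of imprinted genes and in 16.7% of all windows, a description in which several imprinted windows overlap and in which the imprinted windows had a higher median GC content (63.0% against 58.7%). In DIRAS3 it occurred once on each strand, at bases 264 to 269 and 268 to 273 of the printed window, so the matches overlap. L3MBTL1 held 1 match on the other strand, the printed ZDBF2 and TP73 windows held none, and the further ZDBF2 window held 1.

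The SNRPN-UBE3A domain on chromosome 15, which is affected in Prader-Willi and Angelman syndromes, had 4 of its 7 listed genes tested and none called. UBE3A, a ubiquitin ligase read from the maternal copy in neurons, came nearest. It was at 143.6 and 131.1 CPM in mock and 123.7 and 127.4 CPM in the fusion libraries, without overlap. Its log2 fold change of -0.15 missed the threshold (edgeR, adjusted p = 0.0579). Limma-voom and the authors' deposited table called UBE3A lower, with log2 fold changes of -0.15 and -0.35 (adjusted p = 0.0496 and 0.00272). MKRN3, a paternally read ubiquitin ligase that delays puberty, was at 31.1 and 28.8 CPM in mock and 32.6 and 34.5 CPM with the fusion (edgeR, adjusted p = 0.205). NDN, a MAGE family protein, was at 6.90 ± 0.0637 CPM in mock and 7.74 ± 0.355 CPM with the fusion (mean ± SD, n = 2 per group; edgeR, adjusted p = 0.58).

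SNRPN, a splicing protein gene, had 24 and 17 counts in mock and 22 and 38 in JAZF1-SUZ12 libraries (edgeR, adjusted p = 0.445). SNURF, which had at most 5 counts, shares its transcripts with SNRPN, so the division of reads between them is uncertain. ATP10A, a maternally read lipid flippase, had 2 counts in each mock library and 2 and 13 with the fusion, so its excess was in 1 library. MAGEL2 had 0 counts in every library, which allows at most 0.174 CPM in the shallowest. These limits cover counting error only. The tested genes of the domain thus ranged from UBE3A at 137.3 CPM in mock to SNRPN at 0.986 CPM.

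The PEG3 domain on chromosome 19 was nearly silent. PEG3, a zinc finger protein, had 0 and 1 counts in mock and 1 and 4 in JAZF1-SUZ12 libraries. ZIM2, which shares exons with PEG3, had 0 counts in every library, and USP29 had at most 2. On chromosome 7, PEG10, a retrotransposon-derived gene, had 9 and 4 counts in mock and 8 and 14 with the fusion. SGCE, a sarcoglycan that starts beside PEG10, had 11 and 4 counts in mock and 8 and 17 with the fusion (edgeR, adjusted p = 0.512). MEST, a hydrolase-like protein of the mesoderm, had 6 and 5 counts against 11 and 7. Of these 6 genes SGCE alone had enough counts to be tested.

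The most abundant member was GNAS, which encodes the stimulatory G protein alpha subunit and is imprinted only for some of its transcripts. It averaged 551 ± 2.53 CPM in mock, against 588 ± 10.2 CPM with the fusion (mean ± SD, n = 2 per group), without overlap and without a call (edgeR, log2 fold change 0.07, adjusted p = 0.233). IGF2R, the receptor that takes up and degrades IGF2, was at 290.5 and 307.6 CPM in mock and 282.5 and 280.6 CPM with the fusion. Its log2 fold change came to -0.11 (SE 0.05), against 3.35 for its ligand gene (edgeR, adjusted p = 0.102). GRB10, an adaptor that dampens insulin signalling, was at 126.0 and 125.3 CPM in mock and 121.6 and 118.6 CPM with the fusion (edgeR, adjusted p = 0.244).

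Per kb of the longest transcript, the order of mean levels in mock was led by GNAS at 136.8 CPM per kb, followed by PHLDA2 at 25.02, GRB10 at 23.1, IGF2R at 21.3 and DLK1 at 16.8. GNAS stood above 97.3% of the genes tested on this scale. IGF2 and ZDBF2, at 5.48% and 1.05%, were near the bottom of the genes tested in mock. The 2 members with the largest log2 fold changes were thus low in mock. The filter on low counts asks for a minimum level in as many libraries as a group holds. ZDBF2, at 6 and 11 counts in mock, met it only with the fusion libraries. A gene this low in mock is thus tested only where the fusion libraries are higher, so its low mock level is partly set by the filter.

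The remaining tested members were not called. PLAGL1, a zinc finger regulator of other imprinted genes, was at 18.3 and 18.55 CPM in mock and 19.5 and 23.3 CPM with the fusion (edgeR, adjusted p = 0.174). NAP1L5, a histone chaperone relative, was at 14.7 and 14.6 CPM in mock and 13.04 and 11.55 CPM with the fusion (edgeR, adjusted p = 0.117). INPP5F, an inositol phosphatase, and BLCAP overlapped between the groups at about 12.1 and 33.8 CPM in mock. NNAT, a brain proteolipid that lies within BLCAP, had 15 and 11 counts in mock and 10 and 18 with the fusion. Among members tested, the groups did not overlap for 12 genes that were higher and 5 that were lower, and for 33.8% and 27.2% of all genes.

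**Figure D3:**
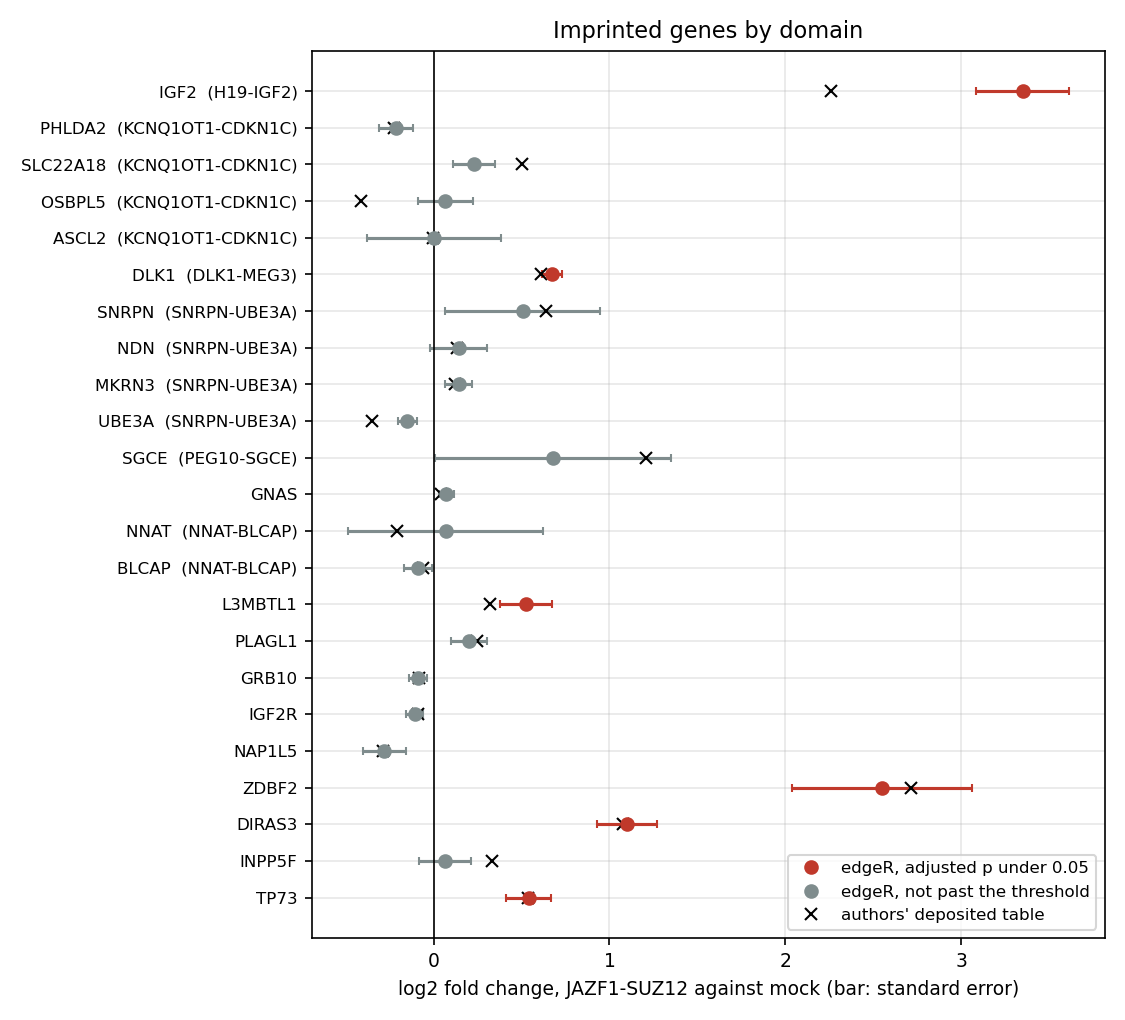
Log2 fold change between the groups (positive where JAZF1-SUZ12 is higher) for the 23 tested imprinted genes, in the order of their domains (in parentheses), with standard errors as bars and the authors' deposited values as crosses. The 6 called genes, in red, all lie to the right of 0, and IGF2 at 3.35 and ZDBF2 at 2.55 lie farthest out.

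By the copy that is usually read, 5 of the 12 tested paternally expressed genes were called higher, and 11 of the 12 had a positive log2 fold change, where 13.3% of all genes were called higher and 50.5% were positive. None of the 5 tested maternally expressed genes was called by the main edgeR fit, and 3 of them were positive. PHLDA2 and UBE3A were lower at an unadjusted p under 0.05 in that fit. This class is small, as 6 of its 9 listed members had a row. Of the 5 tested, 4 lie in the KCNQ1OT1-CDKN1C domain. The other, UBE3A, is read from the maternal copy in neurons, as given above. Of 4 genes imprinted only for some transcripts none was called. Of the 2 with variable imprinting, TP73 was called higher and IGF2R was not called. The difference between these classes was not tested. In the authors' deposited table, 25 members had an adjusted p, and 4 were called higher (IGF2, DLK1, DIRAS3 and ZDBF2) and 1 lower (UBE3A). There 8.5% of all genes with an adjusted p were called, 4.93% higher and 3.57% lower. TP73 and L3MBTL1 were not called in the authors' deposited table (adjusted p = 0.186 and 0.568).

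Genes that start within 1 Mb of a called member were set beside it, a window chosen after the values were seen. Over the 6 called members, 57 such neighbours outside the list were tested, of which 11 were called higher and 4 lower, 26.3% in all against 24.7% of all genes. Around IGF2, 15 neighbours were tested, with 0.10 as the median log2 fold change. Of these, 4 were called higher (LSP1, DUSP8, CDKN1C and CTSD) and 2 lower (TSSC4 and NAP1L4), which is 40.0% against 24.7% of all genes. INS, which starts nearer, had no counts. The nearest tested start was that of ASCL2, a member at 0.0013, and the nearest tested genes outside the list on either side, TSPAN32 and MRPL23, had log2 fold changes of -0.11 and -0.0075 without a call. LSP1, a leukocyte actin-binding protein, rose from 0.766 to 2.51 CPM, with 1.62 and 3.40 CPM in the JAZF1-SUZ12 libraries (log2 fold change 1.71, edgeR, adjusted p = 0.00792).

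Next to DLK1, 8 neighbours were tested. YY1, a zinc finger factor, fell by 0.24 on the log2 scale (edgeR, adjusted p = 0.00434), and EML1, nearly 1 Mb away, rose by 1.87 (edgeR, adjusted p = 0.0261). The nearest tested gene to DLK1, BEGAIN, had a log2 fold change of 0.62 that did not pass (edgeR, adjusted p = 0.186). Near ZDBF2, the closest tested genes NDUFS1 and EEF1B2 had log2 fold changes of -0.08 and 0.03 and were not called. NRP2, a semaphorin co-receptor farther away, rose from 0.168 to 1.56 CPM (edgeR, adjusted p = 0.00112), and no fold is given because its mock level was near the floor. It passed the filter on low counts only through the fusion libraries. GNG12, a G protein gamma subunit that starts 218164 bases from the start of DIRAS3, rose by 0.56 (edgeR, adjusted p = 0.00615). L3MBTL1 had 8 neighbours, of which SRSF6 fell by 0.16 (edgeR, adjusted p = 0.0285). TP73 had 13, of which TPRG1L and ARHGEF16 rose by 0.37 and 0.59 (edgeR, adjusted p = 0.0295 and 0.0426). The nearest tested start to that of TP73, WRAP73 at 241 bases, had a log2 fold change of 0.05 and was not called (edgeR, adjusted p = 0.733).

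**Figure D4:**
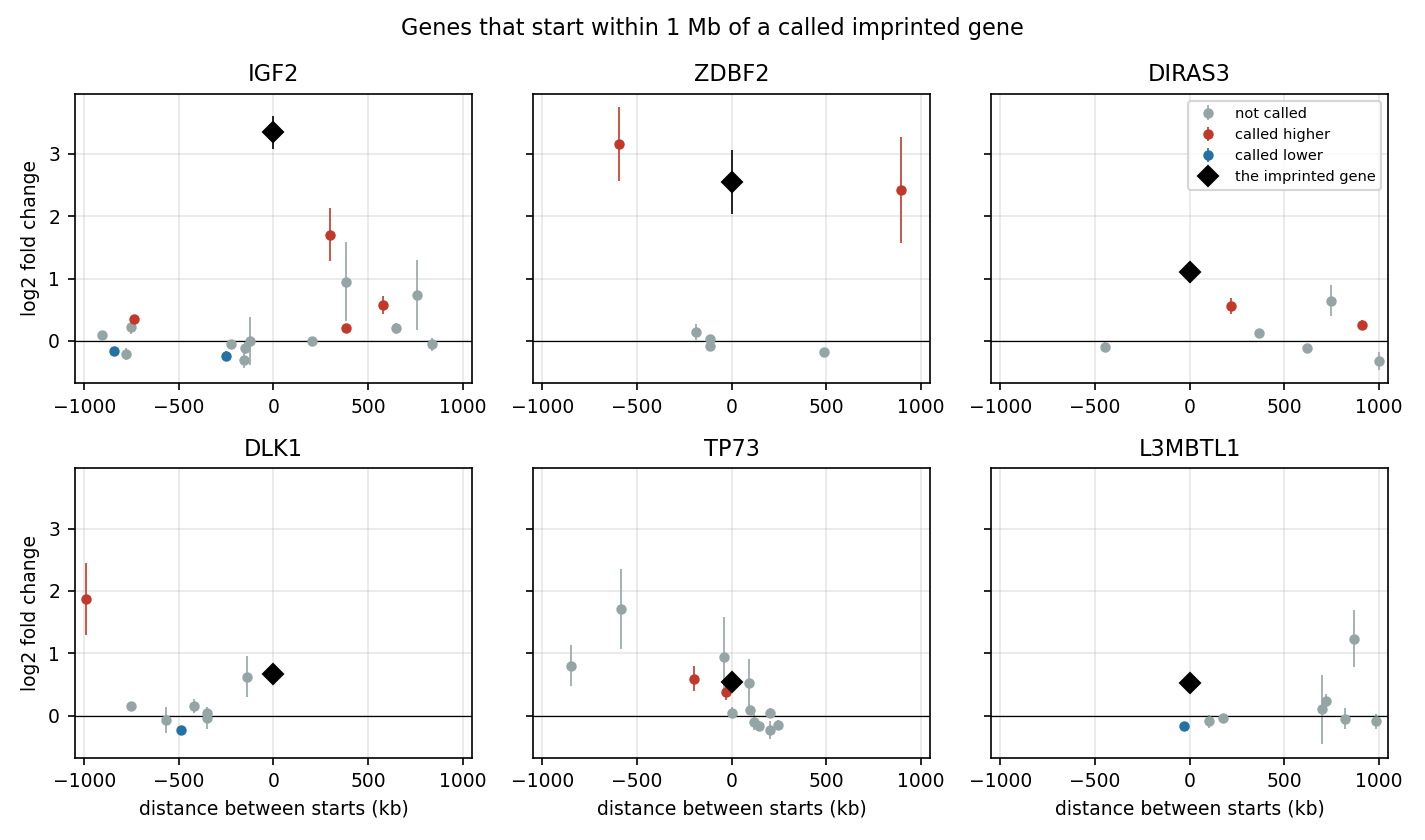
Log2 fold change of every tested gene that starts within 1 Mb of a called imprinted gene, by distance in kb between the starts along the imprinted gene's strand, with standard errors as bars. IGF2 at 3.35 stands above all of its tested neighbours, and the highest points beside ZDBF2, NRP2 and KLF7, are fitted values that depend on the prior count because mock was near the floor.

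A second list held 52 further genes described as imprinted in human, of which 39 had a row and 20 were tested. Of these, 2 were called higher and 3 lower, a share near the 24.7% of all genes. The 2 higher genes were CDKN1C, given above, and ANO1, a chloride channel. ANO1 had 3 and 1 counts in mock and 11 and 17 with the fusion (edgeR, adjusted p = 0.0234), and no fold is given because mock lay at the floor of 3 counts. ANO1 passed the filter on low counts only through the fusion libraries. Genes as low in mock without such a rise were not tested, so its call is not set against the share of all genes. WT1, a zinc finger factor active in leukaemias, fell by 0.44, LIN28B, a blocker of let-7 processing, fell by 0.34, and HM13, a signal peptide peptidase, fell by 0.18 (edgeR, adjusted p = 0.000207, 0.000247 and 0.0207). INS, DIO3, DLX5 and SLC22A3 had 0 counts in every library.

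Genes that flank the domains were also listed, with 61 tested, 9 called higher and 12 lower, together 34.4% against 24.7% of all genes (13.3% higher and 11.4% lower). The 8 with the smallest p-values were PDK4, COBL, LTV1, NUP98, IKZF1, MCMBP, YY1 and SEC23IP. PDK4, a mitochondrial kinase on the arm of PEG10, rose from 9.09 to 27.5 CPM, and COBL, an actin nucleator beside GRB10, rose from 1.12 to 4.37 CPM. Their log2 fold changes were 1.58 and 1.93 (edgeR, adjusted p = 6.01e-08 and 0.0002). The other 6 fell by between 0.24 and 0.47. PEG10 and GRB10 themselves were respectively not tested and not called.

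Factors tied to setting or maintaining imprints were also listed, named maintenance factors for short although de novo enzymes are among them. Of 22 listed, 17 were tested, 1 was called higher and 5 lower, or 35.3% against 24.7%. The de novo DNA methyltransferase DNMT3A rose by 0.55 on the log2 scale, from 21.6 to 31.9 CPM (edgeR, adjusted p = 0.000166). UHRF1, which recruits the maintenance methyltransferase, fell by 0.35, and DNMT1, that enzyme, fell by 0.15 (edgeR, adjusted p = 0.000179 and 0.0302). HNRNPU, DAXX and EHMT1 fell by 0.19, 0.21 and 0.16 (edgeR, adjusted p = 0.00284, 0.0113 and 0.0474). TRIM28, the corepressor bound by imprint-protecting zinc finger proteins, stood at 775.5 CPM in mock, against 724.9 CPM with the fusion, and was not called (edgeR, adjusted p = 0.0625). ZFP57 had at most 3 counts in any library, whereas ZNF445, which acts at many of the same sites, was at 83.6 CPM in mock and 85.8 CPM with the fusion. CTCF, which insulates IGF2 from its enhancers on the maternal copy, had a log2 fold change of -0.12 that did not pass (edgeR, adjusted p = 0.161).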

How the data were processed

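Poly(A) libraries from 4 K562 samples, 2 labelled JAZF1-SUZ12 and 2 mock, were made with a directional kit, per the labels' protocols. The authors deposited estimated counts per gene, not normalized. Per the submitters' processing notes, fastp 0.20.1, kallisto 0.46.2, DESeq2 1.30.1 and hg38 were used. The annotation release is not given in the sources used here, nor is use of strand in counting, so overlapping and antisense genes are less certain. The authors' deposited table holds, per the file headers, a mean normalized signal, a log2 fold change with its standard error, a test score, and p-values that are missing after adjustment for 5356 of 21251 genes.

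Estimated counts were rounded, filtered with filterByExpr, scaled with TMM and compared by edgeR 4.0.16's quasi-likelihood F test in R 4.3.3, group as the only term, two-sided, with Benjamini-Hochberg adjustment. The standard error is the log2 fold change divided by the square root of F. DESeq2 1.42.0, limma 3.58.1 (voom), other scalings and filters, the replicate block, a stricter threshold and leaving out each library were alternatives. The fits were tested on simulated data. CPM is a rounded count per 1000000. At most 3 counts is the floor. Positions and transcript lengths are from GENCODE 29 on GRCh38, which matched 35410 of 35606 genes. Between 29.9% and 33.6% of the values of a library were not whole (tolerance one millionth of a count). A group's 2 libraries limit the precision of every SD. The members and lists were chosen with earlier results of these data known. Every member that was tested or had over 3 counts is named, with up to 8 called genes of each further list, by smallest p-value. CPM values of bulk samples do not tell fewer expressing cells from less RNA per cell.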

Additional observations from a re-analysis of the deposited data

How the results depend on the processing

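Under the alternatives, the number of members called higher was 6 in the fits with DESeq2 size factors, total counts, limma-voom, no filter and the replicate block, and 5 with DESeq2 (without L3MBTL1) and at a mean of at least 50 counts (ZDBF2 not tested). The number called lower was 0 in the main edgeR fit and in DESeq2, and 1, UBE3A, with limma-voom, no filter and the replicate block. The log2 fold change of UBE3A was -0.15, -0.16 and -0.15 there. At an adjusted p under 0.01, the genes called fell from 3643 to 2045 (1255 higher, 790 lower), as a stricter threshold does by construction, and the flanking, maintenance and further imprinted genes called fell from 21, 6 and 5 to 12, 3 and 3. DESeq2 called 2407 genes, 1051 of them lower, and 3 further imprinted genes, and the cause was not tested.

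Leaving out 1 library leaves a lone sample that is assumed to vary like the other group. The number of genes called then ranged from 2568 to 3782, higher from 1498 to 1841 and lower from 1070 to 1941. Members called higher ranged from 4 (without JAZF1-SUZ12 replicate 2) to 6, and lower from 0 to 1, which was PHLDA2 at -0.31 without JAZF1-SUZ12 replicate 1 and UBE3A at -0.22 without mock replicate 2. The flanking genes called ranged from 13 (without mock replicate 1) to 21, the maintenance factors from 3 (without mock replicate 2) to 7, and the further imprinted genes from 3 to 4. Directions turned only in 4 members that were never called: OSBPL5 (-0.11 without JAZF1-SUZ12 replicate 2, -0.16 without mock replicate 1, up to 0.31 with 1 library left out), NNAT (-0.12 without JAZF1-SUZ12 replicate 2, -0.18 without mock replicate 2, up to 0.33), INPP5F (-0.20 without JAZF1-SUZ12 replicate 2, up to 0.26) and ASCL2. ASCL2 was at -0.0005 with DESeq2 size factors, -0.0324 with limma-voom, -0.0069 with no filter, -0.0013 with the replicate block, and from -0.20 to 0.20 with 1 library left out. In the authors' deposited table OSBPL5, NNAT and ASCL2 were also negative (-0.42, -0.21 and -0.0038), and INPP5F was positive (0.33).

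The replicate block called 4061 genes (27.5%), against 17.0% to 26.3% in the other edgeR settings at an adjusted p under 0.05. Same-numbered libraries did not deviate together (r = -0.00255 over 14750 genes), so the block is given only as a check. The standard error was widest for members with few counts, as 0.67 for SGCE and 0.55 for NNAT against 0.04 for GNAS, and 9 members with a row had too few counts to be tested.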
